A study of Mus musculus with 6 samples.

Results

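The mRNAs that encode the proteins of the large cytosolic ribosomal subunit were followed from total RNA into a YTHDF2 immunoprecipitate of tumour regulatory T cells. The set holds 46 genes, *Rpl3* to *Rpl41* and *Rplp0*, *Rplp1* and *Rplp2*, out of 54446 gene IDs in the count files. It was fixed as a list of Ensembl gene IDs and its rule does not use any measured value. The list was chosen with earlier results of these data known, so no test was made over it. The files give no gene symbols, so each symbol was taken from the order of that list, and all 46 symbols were found in the RefSeq gene table of GRCm38.p6, the build that corresponds to the mm10 named by the submitters.

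Live CD45+CD4+ regulatory T (Treg) cells, marked by a Foxp3-GFP reporter, were sorted from subcutaneous B16F10 tumours, a mouse melanoma line, in wild-type (WT) mice. The groups were 3 libraries of RNA bound by an anti-YTHDF2 antibody (IP, 4 hours of incubation and 6 washes) and 3 libraries of Input, which is 10% of the lysate put aside before the precipitation. All libraries share genotype, tumour model and sort, and neither the age or number of the mice nor whether replicates were separate animals or pools is stated, so the p-values speak only of how these libraries vary, and that variation may be technical. No control precipitation was analysed here, and recovery is always the level in the IP set against that in the Input. Markers of Treg cells or of other cells in the tumour could not be looked up without symbols, so the cell type was not checked.

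The large subunit holds the site where peptide bonds are made, the tunnel through which the new chain leaves, and the stalk that receives the translation factors. Its proteins are made from short, abundant and stable mRNAs, most of which begin with a pyrimidine tract (the 5′ terminal oligopyrimidine, or TOP, motif) through which the mTOR pathway controls their translation. YTHDF2 is a cytoplasmic reader of N6-methyladenosine (m6A) that brings bound mRNAs to the deadenylation machinery.

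The start of the transcript is shown for 8 of the genes because the TOP tract is the feature that this class is known for. The rule that fixed the list of 46 genes did not use this tract. Each line gives 15 bases before and 15 from the RefSeq start (GRCm38.p6), 5′ to 3′ on the transcript strand, with an unbroken run of at least 8 C or T bases in capitals.
Rpl15: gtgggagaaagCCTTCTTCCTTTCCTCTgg
Rpl7a: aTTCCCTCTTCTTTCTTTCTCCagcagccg
Rpl14: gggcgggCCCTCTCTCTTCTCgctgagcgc
Rpl35: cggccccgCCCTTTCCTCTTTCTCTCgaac
Rplp2: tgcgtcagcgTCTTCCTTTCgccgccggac
Rpl38: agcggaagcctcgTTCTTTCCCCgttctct
Rplp0: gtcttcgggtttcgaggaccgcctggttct
Rpl26: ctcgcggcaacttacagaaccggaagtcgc
The windows lie at chr14:18270972-18271001 (minus strand) for *Rpl15*, chr2:26910792-26910821 (plus) for *Rpl7a*, chr9:120571502-120571531 (plus) for *Rpl14*, chr2:39005117-39005146 (minus) for *Rpl35*, chr7:141447636-141447665 (plus) for *Rplp2*, chr11:114668565-114668594 (plus) for *Rpl38*, chr5:115559452-115559481 (plus) for *Rplp0* and chr11:68901551-68901580 (plus) for *Rpl26*. The first 6 carry such a run at the start, and the last 2 do not at the position that RefSeq gives. The 8 do not reflect the proportion in the list, where 17 of the 34 genes with a window had a run. The windows of *Rpl38* and *Rpl7a* lie inside the gene spans given below and not at their first base. RefSeq starts are not measured in these cells, so a missing run says only that the letters are not in this window.

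Transcripts of the large subunit were strongly under-represented in the YTHDF2 IP. Levels are given as CPM, the read count scaled to a common library size with TMM factors. Of the 46 genes, 45 passed the filter on low counts, and in 45 of 45 every IP library lay below every Input library. Over all tested genes, this separation was found for 23.7%. In edgeR's quasi-likelihood test with Benjamini-Hochberg adjustment over 15615 genes, 42 of the 46 genes were depleted at an adjusted p under 0.05, against 6.11% of all tested genes. The test called 0 of them enriched, against 4.33% of all tested genes, and 0 were higher in the IP at an unadjusted p under 0.05, as also in DESeq2 and limma voom at an adjusted p under 0.05. Over the 45 genes the median log2 fold change was -3.39, a level 10.5-fold lower in the IP, with quartiles of -4.02 and -2.91 and a range of -5.32 to -1.38. The median over all tested genes was -0.12.

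The filter needs a library size-scaled count in as many libraries as a group holds. Of the 45 tested genes, 42 reached it on the IP libraries alone, and *Rpl18*, *Rpl38* and *Rpl39* passed only through the Input, where they were high. For these 3 genes the filter itself favours a level below the Input. They are included in the counts above and below, with *Rpl38* and *Rpl39* called as depleted and *Rpl18* not called. The median over the 42 genes that passed on the IP alone was -3.38. The gene that was not tested was *Rpl24*.

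**Figure D1:**
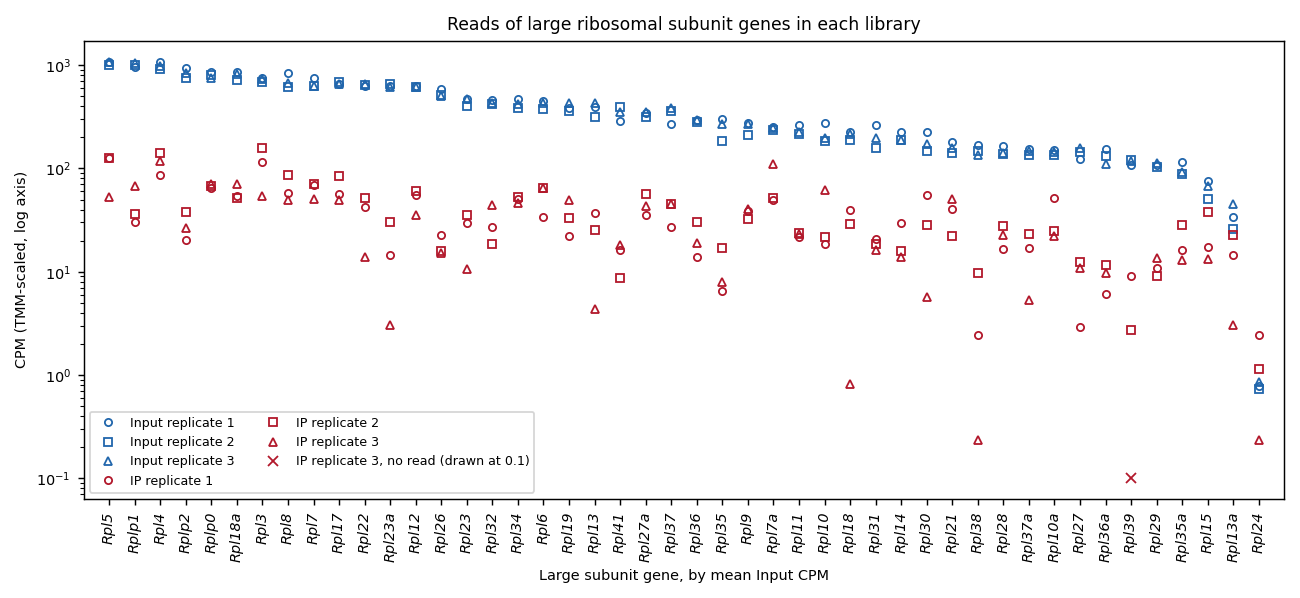
CPM of each of the 46 genes (log axis) in the 3 Input libraries (blue) and the 3 IP libraries (red), with genes in order of their mean Input CPM. The red symbols lie below the blue ones for 45 genes. *Rpl24* at the right lies between 0.235 and 2.43 CPM, and the cross marks *Rpl39* in IP replicate 3, which had no read.

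Taken as a sum, the 46 genes held 1.81%, 1.62% and 1.74% of the gene-assigned reads in Input replicates 1, 2 and 3. They held 0.163%, 0.189% and 0.161% in IP replicates 1, 2 and 3. The means were 1.72% ± 0.0941 (SD, n = 3) and 0.171% ± 0.0158 (SD, n = 3), so that the share was 10.1-fold lower in the IP, and the lowest Input library lay far above the highest IP library. With all reads of a file as the denominator, reads outside genes included, it was 15.8-fold lower. In IP replicate 3, for example, 12500 reads in these genes give a 95% Clopper-Pearson interval of 0.158% to 0.164%, which covers counting error only.

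**Figure D2:**
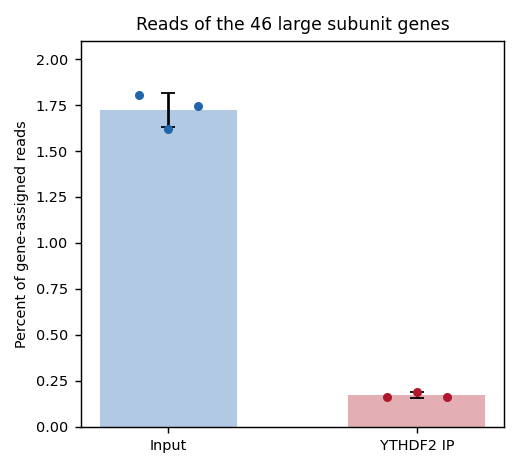
Percent of gene-assigned reads that fell on the 46 genes in each library (points), with the mean (bars, from 0) and SD (error bars) of 3 libraries per group. The Input libraries lie between 1.62% and 1.81% and the IP libraries between 0.161% and 0.189%.

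Depletion is called more often among abundant transcripts, so the genes were also set beside all tested genes with at least 25 CPM in the Input. These were 6080 genes, and the limit was chosen after the levels were seen and passed by all 45. It is a floor and does not match levels, since the 45 genes had a median of 337 CPM in the Input (34.8 to 1059). Shares among genes at the level of the 45 were not computed. Of those 6080 genes, 14.2% were depleted, 9.21% were enriched and 33.7% had every IP library below every Input library. Their median log2 fold change was -0.15, with quartiles of -0.95 and 0.43, and all 45 large subunit genes lay below the lower quartile. A depletion called with an estimate of at least 8-fold was found for 31 of the 46 genes, against 1.68% of all tested genes and 2.93% of the 6080. Of the 6035 other genes that reached this limit, 140 (2.32%) lay at or below the median of the large subunit genes. The 42 depleted genes made up 4.40% of the 954 depleted genes of the whole table and 91.3% of the list.

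**Figure D3:**
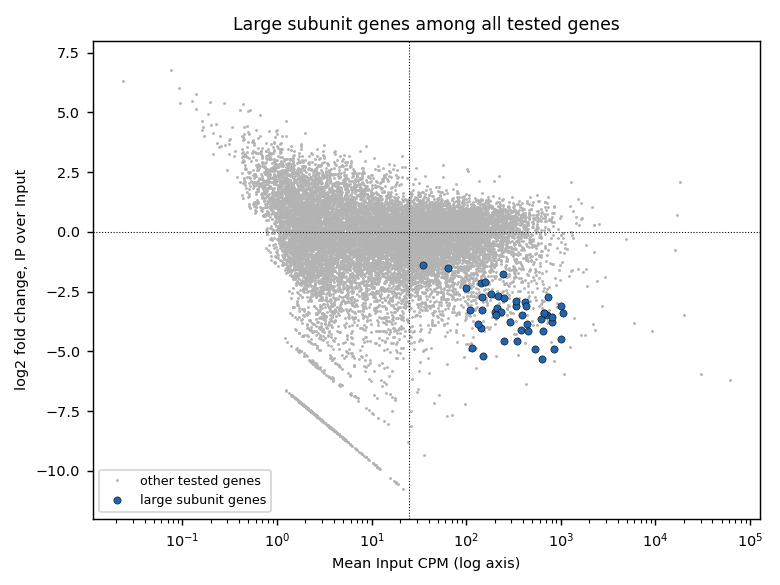
Log2 fold change of IP over Input against mean Input CPM (log axis) for large subunit genes (blue) and all other tested genes with an Input read (grey). The dotted vertical line marks 25 CPM. To its right all 45 blue points lie between -5.32 and -1.38, in the lower part of the grey cloud.

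The stalk proteins contact the elongation factors during translation, with *Rplp0* as the base that holds the *Rplp1* and *Rplp2* dimers and *Rpl12* at its foot. All 4 genes were depleted, with log2 fold changes of -4.91 to -3.57. *Rplp2* (ENSMUSG00000025508, chr7:141447651-141451359), whose start is shown above, had 20.5, 37.5 and 26.8 CPM in IP replicates 1, 2 and 3 and 941, 751 and 847 CPM in Input replicates 1, 2 and 3. The groups lay far apart, and the fitted level was 30.0-fold lower in the IP (log2 fold change -4.91 ± 0.25 SE, adjusted p = 6.72e-06 in edgeR's quasi-likelihood test). *Rplp1* had 30.0, 36.2 and 67.8 CPM in the IP and 968, 1002 and 1049 CPM in the Input, which is 22.5-fold lower, with IP replicate 3 above the other two. *Rpl12* had 54.9, 60.5 and 35.3 CPM in the IP and 636, 611 and 612 CPM in the Input, which is 12.3-fold lower. *Rplp0* (ENSMUSG00000067274, chr5:115559467-115563729) was chosen after the values were seen because its IP libraries agreed closely. They held 64.1, 68.4 and 71.0 CPM against 857, 808 and 756 CPM in the Input, and its adjusted p of 1.72e-06 in edgeR's test was the lowest of the 45.

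*Rpl5* and *Rpl11* bind the 5S ribosomal RNA and, outside the ribosome, the p53 regulator MDM2. Both were depleted by almost the same amount. *Rpl5* (ENSMUSG00000058558, chr5:107900508-107909005) had the most Input reads of all 46 genes, at 1086, 1016 and 1074 CPM, and 127, 125 and 53.4 CPM in the IP (log2 fold change -3.38 ± 0.31 SE, adjusted p = 0.000173 in edgeR's test). IP replicate 3 was well below the other IP libraries for this gene. *Rpl11*, chosen after the values were seen for its small spread, had 21.8, 23.6 and 23.0 CPM in the IP and 262, 214 and 228 CPM in the Input, a log2 fold change of -3.36 ± 0.21 (SE). Reads are not scaled to transcript length here, so CPM values are not compared between genes.

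Of the genes whose proteins lie along the path of the tRNAs, all 5 were depleted, with log2 fold changes of -3.86 to -2.13. *Rpl3* (ENSMUSG00000060036, chr15:80077781-80083406), which lies next to the catalytic centre, had 115, 157 and 54.2 CPM in the IP and 752, 696 and 737 CPM in the Input. IP replicate 3 was again the lowest, the groups did not overlap, and the level was 6.70-fold lower (log2 fold change -2.74 ± 0.33 SE, adjusted p = 0.000937 in edgeR's test). *Rpl10a*, the protein of the mobile L1 stalk that guides the leaving tRNA, was among the least depleted genes of the list. It had 51.2, 24.9 and 22.2 CPM in the IP against 150, 134 and 146 CPM in the Input, which is 4.37-fold lower (adjusted p = 0.00417 in edgeR's test). *Rpl8*, *Rpl10* and *Rpl36a* had log2 fold changes of -3.46, -2.68 and -3.86. Without IP replicate 3, in which it was highest, the value of *Rpl10* was -3.48.

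The proteins that line or ring the exit tunnel were encoded by 9 genes of the list, all depleted, with log2 fold changes of -5.32 to -3.12 and a median of -4.16. *Rpl23a* (ENSMUSG00000058546, chr11:78180935-78183584), the docking site for the signal recognition particle and other factors at the tunnel exit, had the lowest log2 fold change of the 45 genes. It had 14.5, 30.6 and 3.06 CPM in IP replicates 1, 2 and 3 and 627, 663 and 616 CPM in the Input. The Input libraries were close to each other while the IP libraries spread widely, with replicate 3 the lowest, and the fitted level was 39.9-fold lower (log2 fold change -5.32 ± 0.65 SE, adjusted p = 0.00105 in edgeR's test). Without IP replicate 2, its highest IP library, the estimate for *Rpl23a* was -6.20, and the call was lost with a replicate block (adjusted p = 0.109) and without a count filter (0.0968). *Rpl26* (ENSMUSG00000060938, chr11:68901566-68904534), which contacts the same rim, was also strongly depleted, with a smaller spread. Its values were 22.5, 15.9 and 15.2 CPM in the IP and 590, 518 and 509 CPM in the Input, a log2 fold change of -4.91 ± 0.22 (SE). *Rpl39* (ENSMUSG00000079641, chrX:37082518-37085222), a very small protein inside the tunnel wall, had 9.04 and 2.73 CPM in IP replicates 1 and 2 and no read in IP replicate 3, where the 3 reads that a count of 0 allows would be 0.353 CPM. Its Input values were 107, 121 and 119 CPM, and its adjusted p was 0.0140 in edgeR's test. The call of *Rpl39* was lost without IP replicate 2 or Input replicate 2 (adjusted p = 0.0800 and 0.0789), with a replicate block (0.225) and without a count filter (0.289), and its log2 fold change without IP replicate 1 was -6.51 in place of -4.87. *Rpl4*, which also reaches into the tunnel, had 86.6, 141 and 117 CPM in the IP and 1082, 926 and 981 CPM in the Input, 8.67-fold lower, the least depleted of the 9. *Rpl17*, *Rpl19*, *Rpl22*, *Rpl31* and *Rpl35* lay between these, at log2 fold changes of -4.59 to -3.39.

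Of the proteins that form bridges to the small subunit, those of *Rpl23*, *Rpl30* and *Rpl41* were tested, and all 3 genes were depleted. *Rpl23* had 29.9, 35.1 and 10.6 CPM in the IP and 471, 404 and 467 CPM in the Input, 17.8-fold lower (adjusted p = 0.000235 in edgeR's test). *Rpl41* encodes the shortest ribosomal protein and had a log2 fold change of -4.58 ± 0.31 (SE). *Rpl30* had a log2 fold change of -2.62 ± 0.63 (SE) and, at 0.0290, the highest adjusted p of the called genes in edgeR's test. This call was lost without IP replicate 2 (adjusted p = 0.120) and without Input replicate 1, 2 or 3 (0.0721, 0.0709 and 0.0589), with a replicate block (0.111), without a count filter (0.225) and in the test against a 1.5-fold change (0.0606), and the log2 fold change was -3.48 without IP replicate 1.

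*Rpl24* (ENSMUSG00000098274, chr16:55966275-55971437) differed from all other genes of the list in that almost no reads were counted for it. It had 21, 8 and 2 reads in IP replicates 1, 2 and 3 and 11, 7 and 10 reads in the Input, or 2.43, 1.15 and 0.235 CPM against 0.785, 0.731 and 0.857 CPM. The groups overlapped, and this depth cannot show whether its recovery resembled that of the other genes. In the RefSeq table the span of *Rpl24* overlaps that of *Zbtb11*, a protein-coding gene. Such an overlap is found for 9 of the 46 genes, and the 8 others passed the filter on low counts, with a median of 322 CPM in the Input over those 8 against 337 CPM over the 37 genes without one. Strand and exons were not considered, and whether the overlap bears on the count of *Rpl24* was not tested.

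The other 22 genes encode proteins of the body and surface of the subunit. Among them, 19 passed the test as depleted, and 3 missed it. Their median log2 fold change was -3.14 and their range was the widest, from -5.21 to -1.38. *Rpl38* (ENSMUSG00000057322, chr11:114667818-114672333), known for its part in the translation of Hox mRNAs in the embryo, had 2.43, 9.77 and 0.235 CPM in the IP, the last from 2 reads, and 169, 148 and 135 CPM in the Input. The fitted difference was -5.21 ± 0.87 (SE) on the log2 scale (adjusted p = 0.00538 in edgeR's test), and -6.83 without IP replicate 2, its highest IP library. The call of *Rpl38* was lost with a replicate block (adjusted p = 0.0956) and without a count filter (0.216). *Rpl6* was typical of the group, with 33.7, 64.5 and 65.3 CPM in the IP and 453, 377 and 433 CPM in the Input, 7.72-fold lower.

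The least depleted genes of the list also came from this group. *Rpl21* had 40.9, 22.4 and 50.2 CPM in the IP and 181, 143 and 156 CPM in the Input, 4.22-fold lower (adjusted p = 0.00295 in edgeR's test). *Rpl7a* (ENSMUSG00000062647, chr2:26910685-26913312) had 49.6, 51.9 and 111 CPM in the IP and 250, 234 and 245 CPM in the Input, 3.43-fold lower (log2 fold change -1.78 ± 0.31 SE, adjusted p = 0.00653 in edgeR's test). IP replicate 3 held more than 1.5 times the level of either other IP library for this gene, and it still lay below every Input library.

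The 3 tested genes that were not called were *Rpl13a*, *Rpl15* and *Rpl18*. *Rpl13a* (ENSMUSG00000074129, chr7:45125563-45128745), whose protein is known outside the ribosome from interferon-induced silencing of translation, had 14.5, 22.7 and 3.06 CPM in the IP and 33.5, 26.1 and 44.8 CPM in the Input. The highest IP library came close to the lowest Input library, and the difference was -1.38 ± 0.68 (SE) on the log2 scale (adjusted p = 0.263 in edgeR's test), and -2.01 without IP replicate 2. *Rpl15* (ENSMUSG00000012405, chr14:18267823-18270986) had 17.3, 37.6 and 13.4 CPM in the IP and 75.6, 50.1 and 67.6 CPM in the Input, a log2 fold change of -1.50 ± 0.44 (SE) with an adjusted p of 0.0605. Without IP replicate 2, its highest IP library, *Rpl15* had a log2 fold change of -2.11 and an adjusted p of 0.0176. *Rpl18* was named because it missed the threshold, after its values were seen. It had 39.6, 29.3 and 0.823 CPM in the IP, the last from 7 reads, and 227, 190 and 214 CPM in the Input. Its estimate was close to the median of the list, at -3.18, but with an SE of 0.88 and an adjusted p of 0.0502 in edgeR's test. Without IP replicate 3 the log2 fold change of *Rpl18* was -2.64 with an adjusted p of 7.63e-05, and without IP replicate 1 it was -3.86 with 0.106; *Rpl18* was not called with any library other than IP replicate 3 left out.

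**Figure D4:**
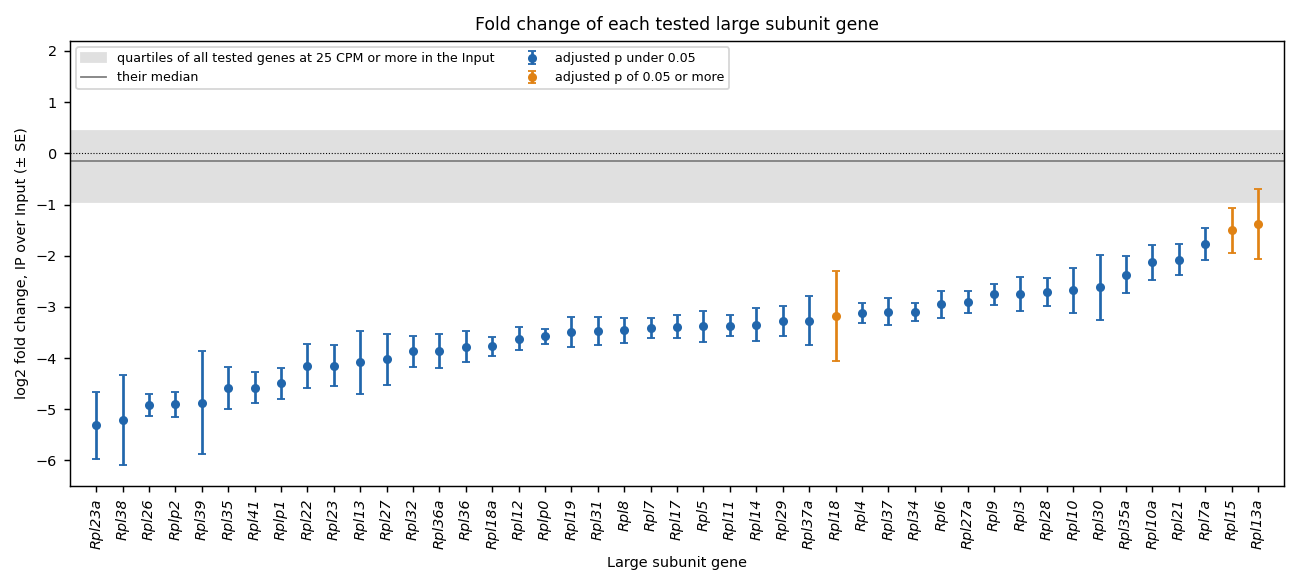
Log2 fold change of IP over Input (± SE, edgeR) of the 45 tested genes in order of size, in blue for an adjusted p under 0.05 and in orange otherwise. The grey band and line give the quartiles (-0.95 and 0.43) and the median (-0.15) of the 6080 tested genes with at least 25 CPM in the Input. All 45 points lie below the band.

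The genes varied little between Input libraries and more between IP libraries. The median coefficient of variation over the 45 genes was 9.32% in the Input and 40.0% in the IP, and it was larger in the IP for 40 of 45. Over the 6080 genes of at least 25 CPM it was 13.3% and 30.4%. IP replicate 3 lay below each of the other IP libraries by a factor of more than 3 for 9 of the 45 genes, *Rpl13*, *Rpl13a*, *Rpl18*, *Rpl22*, *Rpl23a*, *Rpl30*, *Rpl37a*, *Rpl38* and *Rpl39*. The same held for 9.38% of the 6080 genes. IP replicate 1 did so for 1 gene, *Rpl27*, and IP replicate 2 for 0. IP replicate 3 was also more than 1.5 times higher than each of the others for 5 genes, *Rpl7a*, *Rpl10*, *Rpl19*, *Rpl32* and *Rplp1*, while IP replicate 1 was so for 4 genes and IP replicate 2 for 7. This library also had reads for the fewest gene IDs, 14200 against 18501 and 19991 in the other IP libraries. Without it, 43 of 46 genes were depleted, against 1661 of all 19027 genes tested in that fit, and the median was -3.37. That fit also included *Rpl24*, which the main fit did not test. Leaving out 1 library moved the fold of 6 called genes by more than 1.5 times. They were *Rpl10*, *Rpl23a*, *Rpl30*, *Rpl38* and *Rpl39*, with the values given above, and *Rpl13* (not called with a replicate block, adjusted p = 0.173, or without a count filter, 0.151), at a log2 fold change of -4.72 without IP replicate 1 in place of -4.09.

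Genes with many reads in the Input also tended to have more in the IP, with a Spearman rho of 0.69 between mean CPM values over 45 genes. The points share libraries and are not scaled to transcript length. The log2 fold change was lower for genes with more Input reads (rho of -0.38), a relation in which the Input enters both axes. The span of the gene in the genome, from 1059 bp for *Rpl41* to 9647 bp for *Rpl22* with a median of 3179 bp, had a rho of -0.02 with the log2 fold change over the same 45 genes. The median span of all 21900 protein-coding genes of the RefSeq table was 17146 bp. Spans include introns, and transcript lengths were not used here.

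A pyrimidine run of at least 8 C or T bases overlapping the 10 bases on either side of the start was present at 18 of 40 RefSeq starts of the large subunit genes (45%), against 13.7% of all 32851 start windows in the table. On the other strand such a run was found at 4 of the 40 (10%), against 15.1% of all. A start window was at hand for 34 of the 46 genes, 17 of which had the run at 1 start or more. The median log2 fold change was -3.18 for these 17 and -3.48 for the 16 tested genes whose windows lacked the run. The ranges overlapped almost fully, at -5.21 to -1.38 and -4.91 to -2.13. Of the 17 genes with the run 14 were depleted, and of the 16 without it 16 were, so that all 3 genes that missed the threshold carry it. The median Input level also differed, at 210 CPM for the 17 and 340 CPM for the 16. The 12 genes without a window, all depleted, are in neither group. The difference was not tested. Both ends of the order hold genes of either kind: of the most depleted genes *Rpl38* and *Rplp2* have the run and *Rpl26* does not, and of the least depleted *Rpl15* and *Rpl7a* have it and *Rpl10a* does not.

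Small nucleolar RNAs (snoRNAs), which guide the modification of ribosomal RNA, are often encoded in introns of ribosomal protein genes. Of the 46 genes, 20 (43.5%) held at least 1 RefSeq snoRNA gene within their span, against 1.70% of all protein-coding genes, and 40 snoRNA genes lay in them in all. The strand was not considered. The median log2 fold change was -3.25 for the 20 genes and -3.46 for the 25 tested genes without a snoRNA. *Rpl13a*, with *Snord32a*, *Snord33*, *Snord34* and *Snord35a* in its span, and *Rpl7a*, also with 4, were among the 3 least depleted genes. Over the 9 genes with at least 2 snoRNA genes the median was -2.91, and 8 of them lay above the median of the genes without one. *Rpl17* and *Rpl5* did so only narrowly, at -3.39 and -3.38. The median Input level was 635 CPM for the 9 genes and 235 CPM for the genes without a snoRNA. This split was made after the values were seen and is a description with no test. The exception among the 9 was *Rpl23a*, with 3 snoRNA genes, which was the most depleted of all. *Rpl4*, with 5, was at -3.12. Whether snoRNA reads entered the counts of these genes was not tested.

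**Figure D5:**
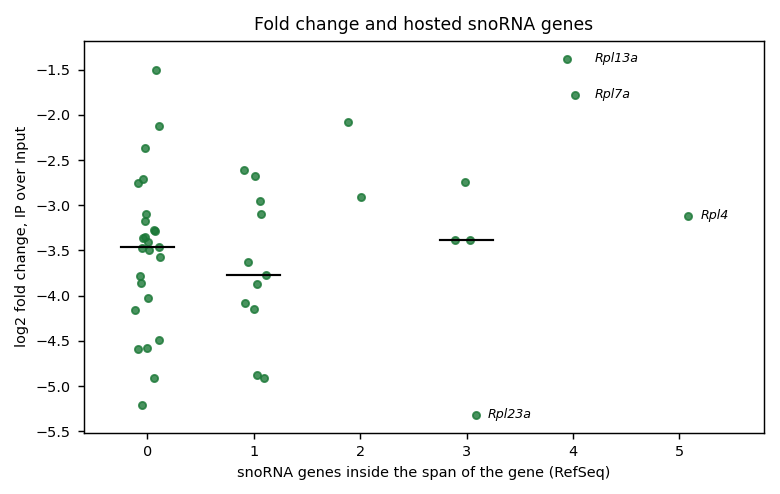
Log2 fold change of IP over Input of the 45 tested genes against the number of RefSeq snoRNA genes within the span of each gene, with small horizontal offsets to separate points. Lines mark the median where at least 3 genes share a number. *Rpl13a* and *Rpl7a* (4 each) lie near the top, at -1.38 and -1.78, and *Rpl23a* (3) at the bottom, at -5.32.

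Ribosomal protein genes have many processed pseudogenes, whose near-identical sequence makes some reads map to several places. RefSeq symbols that add -ps to the name of the gene were found for 39 of the 46 genes, 200 in all, with up to 24 for *Rpl31*. Pseudogenes under other names are not in this count. The levels of genes with such copies may be uncertain for this reason, which was not measured gene by gene. The median log2 fold change was -3.43 for the 8 genes with at least 10 such copies and -3.38 for the 37 tested genes with fewer. Reads that aligned to several places were 9.44% ± 0.244 (SD, n = 3) of those in the Input files and 3.09% ± 0.242 (SD, n = 3) of those in the IP files, and reads on more than 1 gene were 1.24% ± 0.0210 (SD, n = 3) and 0.409% ± 0.0120 (SD, n = 3). Reads in no annotated gene were 50.4% ± 1.08 (SD, n = 3) of the Input files and 71.7% ± 0.436 (SD, n = 3) of the IP files. None of these reads were counted for a gene, and their part in the fold changes was not tested.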

How the data were processed

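RNA immunoprecipitation libraries of YTHDF2 and Input from tumour Treg cells were compared, 3 against 3. The deposited values are raw read counts per Ensembl gene ID; per the submitters' processing notes Trimmomatic 0.39, HISAT2 2.1.0, HTSeq and DESeq2 were used with mm10, while nothing used here states the annotation, the strand setting or the treatment of duplicates. Gene-assigned reads numbered 6847731 to 8465453 per IP library and 10029733 to 14704617 per Input library. Spike-in rows (92) stayed out of library sizes and tests. The 5 HTSeq summary rows did so too, except in library sizes and shares from all reads. Libraries of a group differed by more than counting noise (chi-square per degree of freedom of at least 16.1), so none was the same library deposited again; this does not show that replicates were separate animals.

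From these counts edgeR 4.0.16 in R 4.3.3 fitted all genes left by filterByExpr (minimum count 10), with TMM factors, robust dispersion and group as the only term. The fit was also run on simulated counts, with changes placed only in genes in the upper quartile of level. That run does not show how the fit treats changed genes with fewer reads. Standard errors came from the F statistics. Alternatives were other size factors and filters, DESeq2 1.42.0, limma voom (3.58.1), a test against 1.5-fold, a replicate block and leaving out each library. The genes, their roles and the lists were chosen with earlier results of these data known. Values in every library were printed for the 5 highest and 5 lowest log2 fold changes, the 3 highest and 2 lowest Input CPM and the first gene of each role; others are marked as chosen after the values were seen. Lists of small subunit proteins, other TOP mRNAs, mitochondrial ribosomal proteins, assembly factors and cell markers were not used, since 0 of 49997 RefSeq rows hold an Ensembl ID. Positions, biotypes and start windows are from RefSeq (GRCm38.p6).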

Additional observations from a re-analysis of the deposited data

Results flagged for a closer look

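Reads in no annotated gene enter the comparisons of the large subunit genes only where all reads of a file are the denominator or library size. They were more frequent in the IP and made up 71.7% ± 0.436 (SD, n = 3) of an IP file against 50.4% ± 1.08 (SD, n = 3) of an Input file. No Input library exceeded 51.6%, and no IP library was below 71.2%.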

How the results depend on the processing

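In the 16 alternatives, 0 of the 717 fold changes of the 45 tested genes reversed, and the highest was -0.94 on the log2 scale. *Rpl24* is not among these. It was fitted without a count filter, in DESeq2 and without IP replicate 3. In those settings 45 of 46 log2 fold changes were negative, and that of *Rpl24* was not. The number of depleted large subunit genes ranged from 38 (without a count filter, and with a replicate block) to 44, against 42, with 42 to 46 tested. Depleted calls over all tested genes also changed, from 954 of 15615 in the main fit. They were 1319 of 40072 without a count filter and 1095 of 15615 with a replicate block. In the settings with 44 they were 1924 of 16455 (library sizes from all reads), 2085 of 20847 (DESeq2) and 1737 of 15615 (limma voom). In every alternative 0 large subunit genes were enriched, against 155 to 1382 of all tested genes. Leaving out 1 library gave 40 to 43 depleted and 0 enriched, with 563 of 17263 to 1661 of 19027 depleted over all tested genes. The median log2 fold change was -3.92 with library sizes from all reads, against -3.39, and -3.53 to -3.37 with 1 library left out; over all genes tested in both settings the median moved likewise, to -0.65 from -0.12, and the first median minus the second was -3.27 in either setting. That of all tested genes was 0.08 with upper quartile factors, 0.00 with total counts, -0.50 with a replicate block and -0.57 with limma voom. The share of the 46 genes with all reads as the denominator was 0.0424% (IP) and 0.671% (Input), and it was 1.86% (Input) without the most abundant gene of each group; with 1 library left out it was 0.162% to 0.176% and 1.68% to 1.77%. The replicate block, without which 42 genes were depleted, lost the calls of *Rpl13*, *Rpl23a*, *Rpl30*, *Rpl38* and *Rpl39* and gained that of *Rpl15*. Deviations of same-numbered libraries from their group means correlated at 0.115, 0.0333 and 0.0245 for IP replicates 1, 2 and 3. The highest correlation with an Input library of another number was -0.0422, 0.01 and 0.0216. Values this small, from 3 libraries per group, cannot decide whether equal numbers share a lysate. The main fit did not treat equal numbers as pairs, and the replicate block did. Without a count filter the same 5 calls were lost and *Rpl15* gained; the call of *Rpl39* was also lost without IP replicate 2 or Input replicate 2 (adjusted p = 0.0800 and 0.0789 in edgeR's test), and *Rpl15* and *Rpl18* were both called by DESeq2 and limma voom. The cause was not tested. Few reads limit what can be said of *Rpl24*, *Rpl38* and *Rpl39* in the IP.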
